A study of Arabidopsis thaliana with 14 samples.

Results

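Seedlings of the Arabidopsis mutant bzr1-1D that had grown on diphenyleneiodonium (DPI) together with hydrogen peroxide (H2O2) were compared with bzr1-1D seedlings grown without either, to see how much of the transcript change under DPI remains when H2O2 is given back. The comparison covered every gene of its table, 23503 of the 24350 genes found in the tables used, and 18523 of them had an average of the 2 group means of at least 1 FPKM (fragments scaled to the length of the gene and the number of mapped fragments) and were compared. With DPI plus H2O2, 843 genes were at least 2-fold higher than in mock and 533 were at least 2-fold lower. The genes that stood highest above mock were led by the glucosyltransferase gene UGT74E2 and the CHCH protein gene AT5G09570, and included 3 MATE transporters and several hypothetical proteins. Of 20 mitochondrial stress genes compared, from a list chosen with earlier results of these data known, 15 were at least 2-fold higher. The genes that stood furthest below mock were led by the cell wall protein gene AGP30 and included the asparagine synthetase gene ASN1. The SAUR and Aux/IAA growth genes compared, of which many were below mock under DPI alone, were close to mock, as were most genes.

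DPI blocks flavin-containing enzymes. It is used against the NADPH oxidases of the plasma membrane, which make superoxide that is turned into H2O2, but it also reaches other flavoproteins, among them enzymes of the mitochondrial respiratory chain. Plant mitochondria under stress send a signal to the nucleus, in which transcription factors of the NAC family at the endoplasmic reticulum are released and bind a short promoter element called the mitochondrial dysfunction motif. BZR1 is the transcription factor through which brassinosteroids drive cell elongation, and bzr1-1D is a dominant allele that makes a stabilized BZR1 protein, so that its targets stay active when brassinosteroid synthesis is blocked.

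The group of interest was bzr1-1D on 1 µM DPI and 0.3 mM H2O2, with 2 samples. It was set against bzr1-1D mock, with 3 samples in the labels, and bzr1-1D on 1 µM DPI alone, with 3 samples, is given beside both. Wild-type Col-0 with and without 1 µM DPI, 3 samples each, shared no library with these groups. All groups are of the Columbia ecotype and all media held 2 µM propiconazole (PPZ), an inhibitor of brassinosteroid synthesis, so mock means PPZ alone. Growth lasted 6 days in darkness on ½ MS medium by the labels and the methods, while the supplementary data descriptions give a shorter time. No group received H2O2 without DPI, so an effect of H2O2 on its own cannot be told apart from its effect on DPI-treated seedlings. The mutant is represented by 1 allele.

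The tables give only the authors' mean of each group, so there is no spread between samples, no n behind a ratio and no test, and every ratio below compares means of a few libraries. The decimals of the bzr1-1D mock means are those of averages over 2 libraries, not 3, so the samples behind them cannot be named in full. The lowest values rise in steps of a single fragment, and the step size corresponds to a depth per library of about 9080000 fragments for DPI plus H2O2, 8530000 for DPI and 9370000 for mock. At this depth a gene of 1 kb at 10 FPKM rests on about 182 fragments over the libraries of DPI plus H2O2 and 187 over those of mock, a counting error of 7.42% and 7.31%, and at 1 FPKM the error in mock is 23.1%. These errors and the intervals below cover counting only, not differences between plants. The samples are labelled hypocotyl, while the stage label and the paper speak of seedlings. Markers of the root endodermis were present throughout: all 8 reached 1 FPKM in each bzr1-1D group, with a summed level of 705 FPKM in DPI plus H2O2, 445 FPKM in DPI and 912 FPKM in mock. Of 7 root hair markers, 3 reached 1 FPKM in DPI plus H2O2, 2 in DPI and 6 in mock, and none was listed at 0.01 FPKM in DPI plus H2O2 or mock. Their summed levels were 21.8, 15.2 and 41.8 FPKM in the same order. In such bulk samples, fewer cells of a type and less RNA per cell cannot be told apart.

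Most transcripts were near their mock level. Of the 18523 genes compared, 14536 lay within 1.5-fold of mock and the median log2 ratio was 0.04. The 843 genes at least 2-fold higher were 4.55% of the genes compared and the 533 lower ones were 2.88%. Among the higher genes, 120 were at least 4-fold and 43 at least 8-fold above mock, whereas 63 of the lower genes were at least 4-fold and 7 at least 8-fold below it. The largest differences were thus mostly on the higher side. Low values limit part of these counts: 120 of the higher genes were below 1 FPKM in mock, 3 of them listed at 0.01 FPKM, the lowest value in the tables, and 96 of the lower genes were below 1 FPKM in DPI plus H2O2, 1 of them listed at 0.01 FPKM. Ratios are on the log2(FPKM + 1) scale, which understates the change of such genes.

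**Figure D1:**
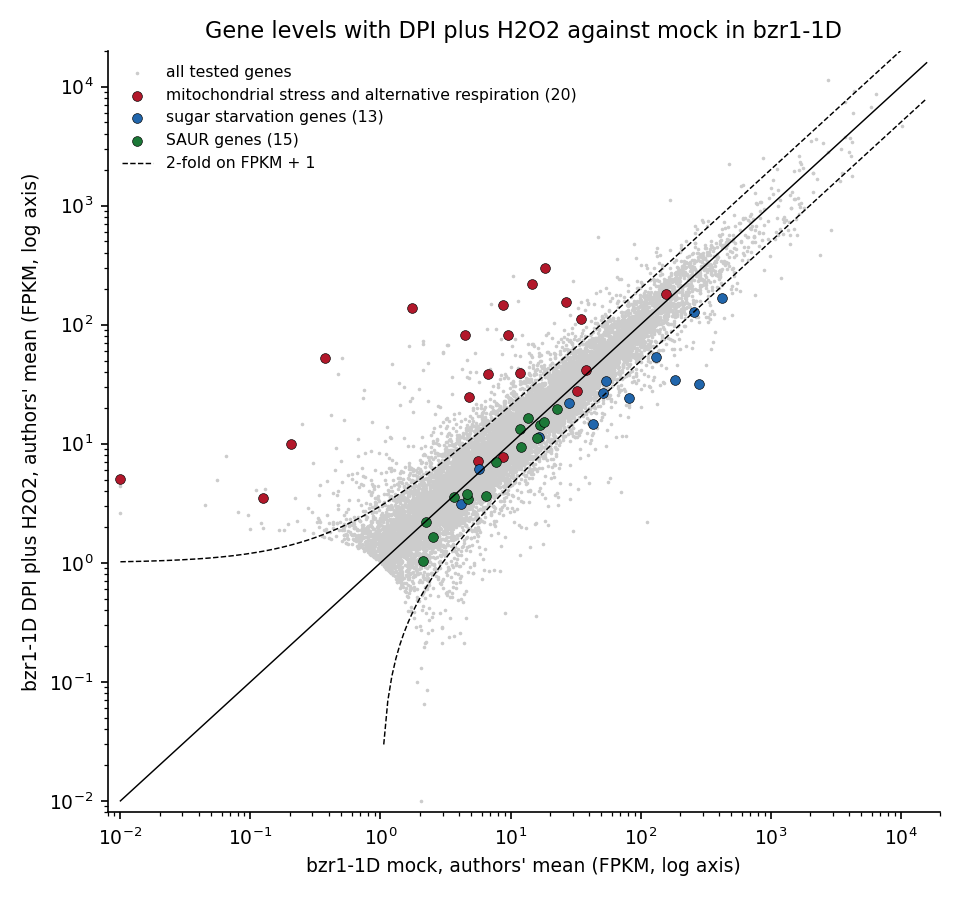
Authors' mean of each of the 18523 compared genes in bzr1-1D with DPI plus H2O2 (vertical, FPKM, log axis) against bzr1-1D mock (horizontal, FPKM, log axis), with the line of equal levels and dashed lines at 2-fold on FPKM + 1. Mitochondrial stress genes (red) lie near or above the line, 15 of 20 of them past 2-fold, sugar starvation genes (blue) lie mostly below it, and the SAUR genes (green) lie between the dashed lines.

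With DPI alone against the same mock libraries, 970 genes (5.3% of 18286) were at least 2-fold higher and 1727 (9.44%) at least 2-fold lower, with a median log2 ratio of -0.21 over all genes. When each comparison was centred on its median gene, these counts were 1540 and 1145, and the counts for DPI plus H2O2 were 759 and 575. Under either scaling, then, more genes were past 2-fold below mock with DPI alone than with DPI plus H2O2. The counts share the mock libraries, and the difference between them was not tested.

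The 12 genes with the largest ratios among those averaging at least 10 FPKM were of mixed annotation: 1 glucosyltransferase, 1 glutathione S-transferase, 3 MATE carriers, 1 CHCH protein, 1 oxygenase and 5 with little annotation. UGT74E2, which encodes a glucosyltransferase of the auxin indole-3-butyric acid and responds to oxidative stress, stood first, with 137 FPKM in DPI plus H2O2, 86.5 FPKM in DPI and 1.75 FPKM in mock. The ratio of 78.2 to mock has a counting interval of 60.4 to 103 (95%). AT5G09570, annotated as a Cox19-like CHCH family protein, of a family that works in the space between the mitochondrial membranes, had 52.1, 58.2 and 0.375 FPKM in DPI plus H2O2, DPI and mock. Only about 6.4 fragments lie behind its mock value, so its 139-fold ratio has an interval of 63.5 to 379.

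Efflux carriers of the MATE family, which move small molecules out of the cytosol, supplied 3 of the 12, and all 3 are close neighbours on chromosome 2. AT2G04070 (chr2:1353755-1355883, TAIR10, reverse strand) had 52.4 FPKM in DPI plus H2O2, 42.6 FPKM in DPI and 0.505 FPKM in mock. AT2G04050 (chr2:1337180-1339468, reverse strand) had 150 FPKM in DPI plus H2O2, 130 FPKM in DPI and 7.09 FPKM in mock. DTX1 (chr2:1334270-1336550, reverse strand), whose protein is known to export toxic compounds, had 67.6, 84.7 and 3.29 FPKM in the same order. The copies are similar and adjacent, so fragments may have been divided between them, and DTX1 also overlaps AT2G04039, but every copy stood more than 20-fold above mock.

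GSTU25 encodes a tau-class glutathione S-transferase, an enzyme that couples glutathione to reactive compounds. It had 257 FPKM in DPI plus H2O2, 149 FPKM in DPI and 10.4 FPKM in mock, a 24.7-fold ratio with a counting interval of 21.4 to 28.6. AT5G43450, annotated as a 2-oxoglutarate and Fe(II)-dependent oxygenase, had 72.7, 41.8 and 2.14 FPKM. The remaining 5 carry little annotation: AT3G54530, AT3G54520, AT5G24640 and AT4G12735 are hypothetical proteins and AT2G28815 is annotated as a 50S ribosomal protein L16. Their levels ran between 28.2 and 69.4 FPKM in DPI plus H2O2 and between 0.47 and 2.12 FPKM in mock. AT3G54530 and AT3G54520 are neighbours on chromosome 3, and AT3G54520 overlaps AT3G54510.

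In 10 of the 12 genes the mean with DPI plus H2O2 was above that with DPI alone, which the choice by the highest ratio of DPI plus H2O2 to mock favours. All 12 were also at least 2-fold higher with DPI than in mock in Col-0, with log2 ratios between 1.17 and 3.93, against 1.1% of 17684 genes in that comparison. The Col-0 libraries took no part in choosing these genes. UGT74E2, for one, had 28.5 FPKM in Col-0 with DPI and 6.13 FPKM in Col-0 mock.

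**Figure D2:**
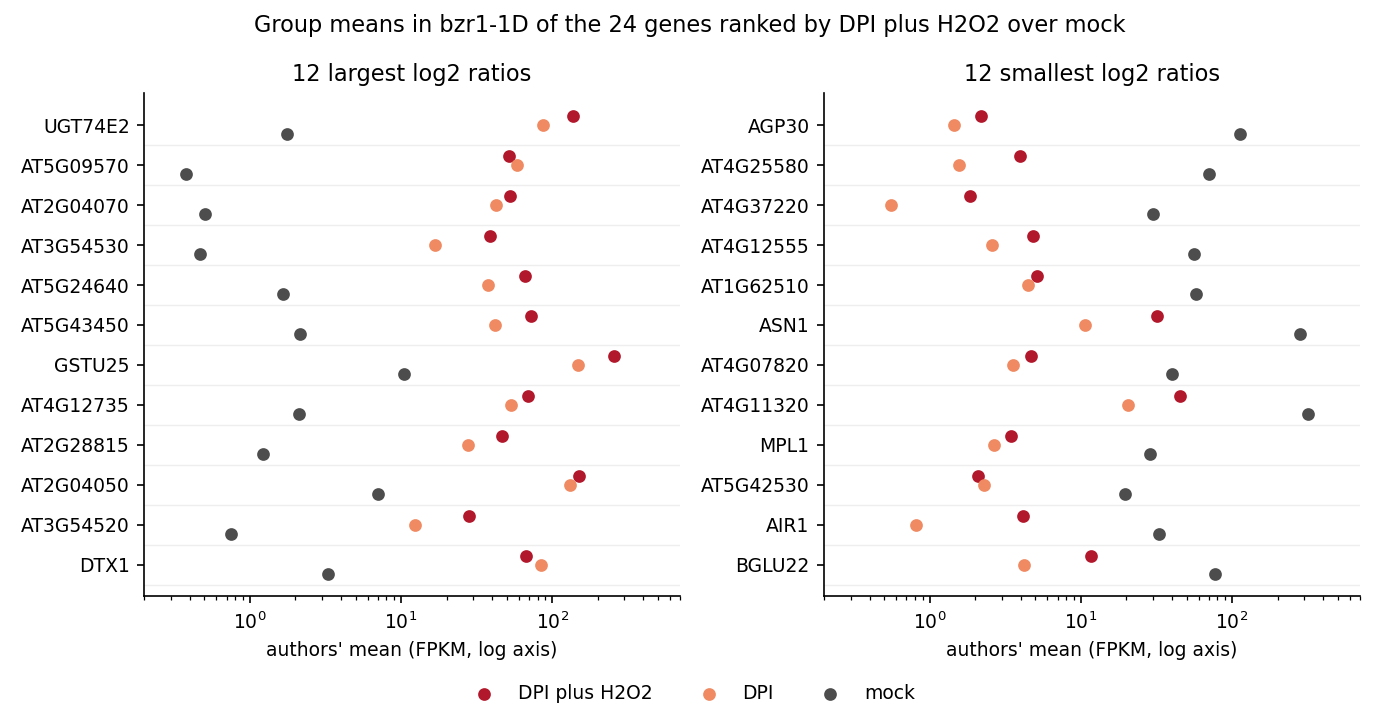
Authors' means (FPKM, log axis) in bzr1-1D with DPI plus H2O2 (dark red), DPI (orange) and mock (grey) of the 24 genes at either end of the ranking by DPI plus H2O2 over mock, 12 a panel, among genes averaging at least 10 FPKM. In both panels the means of the DPI-containing groups lie nearer to each other than to mock, and in 11 of the 12 lowest genes DPI plus H2O2 lies above DPI.

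A motif search was made in the 300 bases upstream of each gene's annotated start, read from the TAIR10.1 genome (RefSeq), whose gene spans contain the file's coordinates for all 24145 nuclear genes present in both. The mitochondrial dysfunction motif was searched as CTTG, any 5 bases, then CAAG or CACG, on both strands, with a palindromic match counted once. It was found upstream of 51 of 802 nuclear genes at least 2-fold higher in DPI plus H2O2 (6.36%), of 7 of 531 lower genes (1.32%), of 204 of 18390 genes compared (1.11%) and of 517 of 37897 annotated genes (1.36%). Read the other way, 25% of the 204 genes with the motif were at least 2-fold higher than in mock, against 4.13% of the 18186 genes without it, while 3.43% and 2.88% were lower. In the 1000 bases upstream the shares were 9.23% of higher, 3.95% of lower and 3.89% of all compared genes. Most of the excess among higher genes therefore lay near the start. The G-box CACGTG was found upstream of 6.23% of higher, 10.9% of lower and 7.89% of all compared genes, and the brassinosteroid response element (CGTGTG or CGTGCG, both strands) upstream of 8.35%, 10.2% and 7.87%. A match of letters is a description and not a binding site.

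The stretches below show the motif in capitals, 5′ to 3′ towards the gene, with 35 bases on either side where the window and the gene start allow. The first 5 genes were more than 2-fold above mock, NDB2 by much less than the others. NAC017 and CRF6, which carry the motif as well, are shown because their levels were near mock. The motif was found upstream of 4 of the 12 genes with the largest ratios and of 8 of the 23 mitochondrial stress genes examined below. None was found in the 300 bases upstream of UGT74E2, AT5G09570, AOX1A, AOX1D, NDB4, SOT12 or NAC13.
AT2G04050 (MATE transporter, 2 motifs, chr2:1339577-1339718, reverse strand): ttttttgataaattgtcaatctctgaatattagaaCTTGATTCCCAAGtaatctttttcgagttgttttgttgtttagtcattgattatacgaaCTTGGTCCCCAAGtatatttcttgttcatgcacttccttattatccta
AT4G12735 (hypothetical protein, 2 motifs, chr4:7494296-7494450, reverse strand): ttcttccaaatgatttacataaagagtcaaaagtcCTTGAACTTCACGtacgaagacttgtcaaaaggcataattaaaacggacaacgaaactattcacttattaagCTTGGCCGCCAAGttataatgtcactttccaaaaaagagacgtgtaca
AT2G21640 (annotated marker of oxidative stress, chr2:9254292-9254374, forward strand): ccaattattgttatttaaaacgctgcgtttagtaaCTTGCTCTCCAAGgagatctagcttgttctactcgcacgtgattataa
CYP81D8 (cytochrome P450, chr4:17571836-17571918, reverse strand): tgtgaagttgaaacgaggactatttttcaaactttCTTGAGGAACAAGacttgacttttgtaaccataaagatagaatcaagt
NDB2 (NAD(P)H dehydrogenase, chr4:2572313-2572395, forward strand): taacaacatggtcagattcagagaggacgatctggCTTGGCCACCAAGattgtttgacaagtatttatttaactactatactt
NAC017 (NAC factor, chr1:12451260-12451342, forward strand): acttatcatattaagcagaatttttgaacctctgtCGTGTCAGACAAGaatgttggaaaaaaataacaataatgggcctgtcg
CRF6 (cytokinin response factor, chr3:22804698-22804747, forward strand): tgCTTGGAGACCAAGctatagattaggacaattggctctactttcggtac

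Mitochondrial stress and alternative respiration had the highest median ratio of the 33 gene lists examined. The lists were chosen with earlier results of these data known, and this one holds UGT74E2 and AT5G09570. Its rank is therefore a description and not independent of the ranking above. Of 23 genes, 20 were compared, 15 were at least 2-fold higher with DPI plus H2O2 and none was lower, with a median log2 ratio of 2.43 beside 0.04 over all genes. With DPI alone, 15 of 20 were higher, with a median of 1.97 beside -0.21. In Col-0, 10 of 18 were higher with DPI, with a median of 1.17 beside -0.24. Set directly against DPI, the list had a median log2 ratio of 0.14 with DPI plus H2O2, beside 0.25 over all genes, and 1 of 20 members was past 2-fold.

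Within this list the alternative oxidases, which pass electrons from ubiquinol to oxygen without pumping protons, and the external and internal NAD(P)H dehydrogenases that feed the same pool were looked at as families after their values had been seen. AOX1A had 155 FPKM in DPI plus H2O2, 153 FPKM in DPI and 26.6 FPKM in mock. AOX1D had 5.08 and 5.15 FPKM in DPI plus H2O2 and DPI and was listed at 0.01 FPKM in mock. AOX1B, AOX1C and AOX2 stayed below 1 FPKM in all bzr1-1D groups, so the response was carried by 2 of the 5 genes. Among the dehydrogenases, NDB4 had 10.01, 9.80 and 0.205 FPKM in DPI plus H2O2, DPI and mock, and NDB2 had 39.6, 38.2 and 11.8 FPKM. NDA1 had 3.51, 3.73 and 0.125 FPKM. NDB1 and NDA2, with log2 ratios of -0.16 and 0.29, were near mock. For all these enzymes the means with and without H2O2 almost coincided.

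Several other members, picked from the list, had higher means with DPI plus H2O2 than with DPI. A pick of members with high ratios to mock favours this. Over the list, the median log2 ratio of DPI plus H2O2 to DPI was 0.14, beside 0.25 over all genes. AT2G21640, annotated as encoding a marker for oxidative stress response, had 297 FPKM in DPI plus H2O2, 188 FPKM in DPI and 18.4 FPKM in mock. AT5G51440, an HSP20-like chaperone, had 82.1, 37.9 and 9.60 FPKM. The cytochrome P450 gene CYP81D8 had 82.3, 59.1 and 4.50 FPKM, and the sulfotransferase gene SOT12 had 218, 189 and 14.6 FPKM. Of the regulators, NAC13, a NAC factor of the mitochondrial signal that binds the dysfunction motif, had 38.8 FPKM in DPI plus H2O2, 25.98 FPKM in DPI and 6.76 FPKM in mock. NAC017, which acts upstream of it and is controlled by release from the membrane, had 28.0, 28.1 and 32.5 FPKM, so its transcript was near mock. The mitochondrial chaperonin genes HSP60-2 and HSP60, counted with the heat shock proteins, had log2 ratios of 1.60 and 1.22 over mock. Of 18 genes compared in that list, 3 were at least 2-fold higher and 3 lower, with a median log2 ratio of 0.03.

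**Figure D3:**
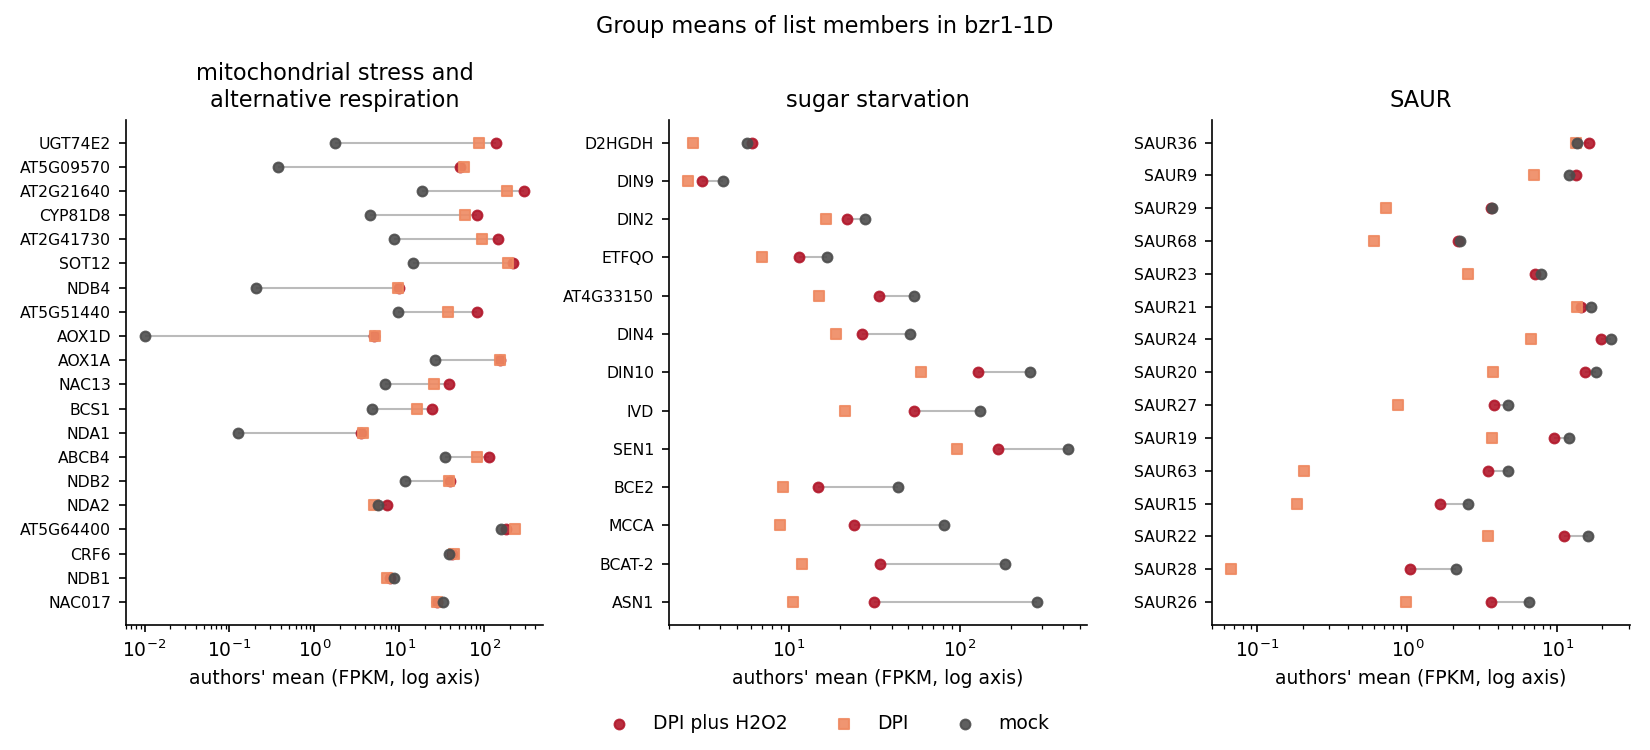
Authors' means (FPKM, log axes) in bzr1-1D with DPI plus H2O2 (dark red circles), DPI (orange squares) and mock (grey circles) for the compared members of 3 lists, 20 mitochondrial stress genes, 13 sugar starvation genes and 15 SAUR genes, each ordered by the ratio of DPI plus H2O2 over mock. DPI plus H2O2 lies with DPI in the first panel, between DPI and mock in most of the second, and beside mock in the third; AOX1D is listed at 0.01 FPKM in mock.

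Among the tau-class glutathione S-transferases about as many genes were past 2-fold above mock as within it. Of 23 compared, 12 were at least 2-fold higher with DPI plus H2O2 and 1 was lower, with a median log2 ratio of 1.05. With DPI alone, 10 were higher and 2 lower, with a median of 0.64. GSTU24 had 544 FPKM in DPI plus H2O2, 345 FPKM in DPI and 46.9 FPKM in mock, and lies beside GSTU25 on chromosome 1, so these copies may share fragments. GSTU9 had 232, 118 and 30.5 FPKM, and GSTU11 had 8.64, 5.40 and 0.84 FPKM. These 3 were named for their high ratios of DPI plus H2O2 to mock, which favours a high level in that group. Set directly against DPI, none of 22 tau-class genes was past 2-fold with DPI plus H2O2, with a median log2 ratio of 0.63 beside 0.25 over all genes. In the wild type, 2 of 21 were at least 2-fold higher with DPI in Col-0, with a median of -0.26, and GSTU24 had 28.7 FPKM in Col-0 with DPI and 26.7 FPKM in Col-0 mock. The difference between the genotypes was not tested.

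Genes for the DPI target and for H2O2 turnover moved less. None of the 6 NADPH oxidase genes compared was past 2-fold in either direction, beside 4.55% higher and 2.88% lower over all genes. Their log2 ratios ran from -0.48 to 0.81 with a median of 0.06. RBOHD, the gene for the main oxidase of stress and hormone signals, had 9.60 FPKM in DPI plus H2O2, 7.95 FPKM in DPI and 8.22 FPKM in mock. RBOHB had 3.53, 1.20 and 5.34 FPKM. Among 12 genes of H2O2 and superoxide removal, 3 were at least 2-fold higher and all 3 encode iron superoxide dismutases, which convert superoxide to H2O2. FSD1 had 501 FPKM in DPI plus H2O2, 790 FPKM in DPI and 223 FPKM in mock. The plastid-targeted FSD2 had 13.6, 13.5 and 3.59 FPKM, and FSD3, also of plastids, had 34.9, 54.8 and 13.6 FPKM. The catalase gene CAT3, the most abundant of the list, had 2612 FPKM in DPI plus H2O2, 2059 FPKM in DPI and 4158 FPKM in mock. Of 8 h-type thioredoxins, which reduce disulfides in the cytosol, TRXh8 had 7.82, 10.8 and 0.68 FPKM, TRXh7 had 2.15, 0.71 and 0.465 FPKM, and TRXh5 had 18.6, 14.3 and 38.2 FPKM. Members of this small family therefore lay on both sides of mock.

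Part of the plastid and light-associated genes stood above mock with DPI plus H2O2, and more of them did with DPI alone. Of 17 light-harvesting antenna genes, 9 were at least 2-fold higher and none lower, with a median log2 ratio of 1.05. With DPI alone, 11 of 17 were higher, with a median of 1.56, and in Col-0 10 of 17 were higher with DPI, with a median of 1.20. LHCB2.2 had 152 FPKM in DPI plus H2O2, 155 FPKM in DPI and 39.3 FPKM in mock. LHCB3 had 408, 389 and 131 FPKM. The LHCB2 copies are nearly identical and may share fragments. Photosystem subunit genes of the nucleus and the plastid, the plastid ones counted again below, had a smaller share past 2-fold. With DPI plus H2O2 12 of 44 were at least 2-fold higher and 1 lower, with a median log2 ratio of 0.72. With DPI 24 were higher and none lower. In Col-0 1 of 44 was higher with DPI, with a median of 0.51. PSAH2 in bzr1-1D had 193 FPKM in DPI plus H2O2, 215 FPKM in DPI and 48.5 FPKM in mock.

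Transcripts of the organelles' own genomes had positive medians, although most were within 2-fold of mock. Of 85 plastid-encoded genes 21 were at least 2-fold higher and 1 lower, with a median log2 ratio of 0.59, and of 47 mitochondrion-encoded genes 20 were higher and 1 lower, with a median of 0.98. Only these 47 of 117 mitochondrion-encoded genes with values reached an average of 1 FPKM, and only 6 reached 10 FPKM. With DPI alone the medians were 0.76 and 1.09. In Col-0, DPI gave medians of 0.10 for the plastid-encoded and 0.47 for the mitochondrion-encoded genes, with 0 and 8 genes at least 2-fold higher. RBCL, for the large subunit of Rubisco, had 102 FPKM in DPI plus H2O2, 94.1 FPKM in DPI and 31.2 FPKM in mock. The 4 nuclear genes of its small subunit did not follow a single pattern. RBCS1B had 359, 934 and 65.7 FPKM, whereas RBCS1A had 3795, 7256 and 3725 FPKM.

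Flavonoid genes stood above mock too, but less so with H2O2 than with DPI alone. Of 10 compared, 6 were at least 2-fold higher with DPI plus H2O2, with a median log2 ratio of 1.23, and 9 were higher with DPI alone, with a median of 1.88. CHS, for chalcone synthase, the entry enzyme of the pathway, had 57.1 FPKM in DPI plus H2O2, 185 FPKM in DPI and 8.57 FPKM in mock. FLS1, for flavonol synthase, had 10.6, 19.7 and 1.08 FPKM, and F3H, for flavanone 3-hydroxylase, had 5.97, 20.5 and 1.27 FPKM. PAP1, a MYB activator of anthocyanin genes, had 4.91, 11.9 and 0.39 FPKM. In all 10 genes the mean with DPI plus H2O2 was below that with DPI, by 0.36 to 1.68 on the log2 scale, while all 10 were still above mock.

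**Figure D4:**
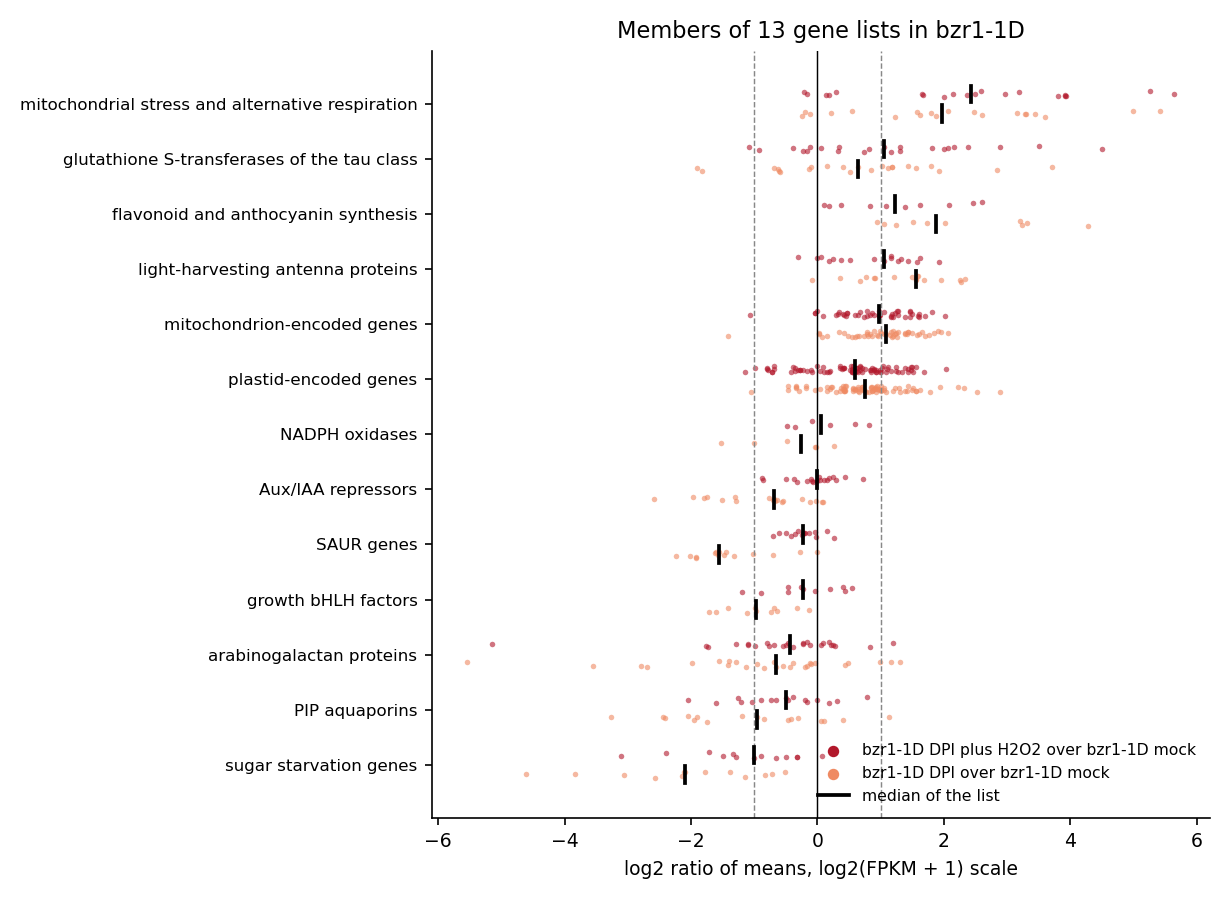
Log2 ratios in bzr1-1D (log2(FPKM + 1) scale) of DPI plus H2O2 over mock (dark red) and of DPI over mock (orange) for the members of 13 gene lists, with a black bar at each list's median and dashed lines at 2-fold. The 2 rows of a list share the mock libraries; in the SAUR list the median was -0.23 with DPI plus H2O2 and -1.55 with DPI, and in the mitochondrial stress list it was 2.43 and 1.97.

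On the lower side, AGP30 was furthest from mock. It encodes an arabinogalactan protein of the cell wall known from roots, and had 2.19 FPKM in DPI plus H2O2, 1.44 FPKM in DPI and 113 FPKM in mock. Mock was 51.3-fold higher, with a counting interval of 38.2 to 70.5. In Col-0 it had 19.6 FPKM with DPI and 116 FPKM in mock. Of 26 arabinogalactan protein genes compared, 6 were at least 2-fold lower and 1 higher with DPI plus H2O2, with a median of -0.43, and AGP22 had 28.9 FPKM in DPI plus H2O2, 7.74 FPKM in DPI and 101 FPKM in mock.

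Several others of the 12 lowest genes are known from roots or from the response to cold and drought. AT4G25580, annotated as a CAP160 protein, had 3.96 FPKM in DPI plus H2O2, 1.55 FPKM in DPI and 70.2 FPKM in mock. AT4G37220, a cold acclimation protein of the WCOR413 family, had 1.86, 0.553 and 30.0 FPKM. AIR1, an auxin-induced gene of root cultures (chr4:7439115-7439805, forward strand), had 4.15, 0.81 and 33.1 FPKM. It overlaps the oppositely oriented AT4G12555 (chr4:7439164-7440116), which is also among the 12 and had 4.78, 2.56 and 55.9 FPKM. Whether the libraries kept the strand is not given in the sources used here, so these may be a single signal. BGLU22, a beta-glucosidase gene, had 11.6 FPKM in DPI plus H2O2, 4.21 FPKM in DPI and 77.5 FPKM in mock, and AT4G11320, a papain-family cysteine protease, had 45.6, 20.4 and 318 FPKM. For most of these genes H2O2 was accompanied by a level somewhat above DPI alone, yet still 6.67-fold or more below mock.

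AT1G62510 (a lipid-transfer type protein that overlaps AT1G62515), AT4G07820 (a CAP superfamily secreted protein), the aphid-induced lipase gene MPL1 and the hypothetical protein gene AT5G42530 complete the 12. Their levels were 2.08 to 5.11 FPKM in DPI plus H2O2 and 19.4 to 58.0 FPKM in mock. All 12 were also at least 2-fold lower with DPI alone, against 9.44% of 18286 genes. That comparison shares the mock means by which the 12 were chosen, which favours low ratios there. In Col-0, which took no part in the choice, 11 of 12 were at least 2-fold lower with DPI, against 3.73% of 17684 genes. The exception, AT5G42530, had 7.69 FPKM in Col-0 with DPI and 2.39 FPKM in Col-0 mock. Root markers had negative medians too: the endodermis list had a median log2 ratio of -0.28 with DPI plus H2O2 and -0.97 with DPI, and the wider list of 12 root hair genes -0.66 and -0.93, whereas with DPI in Col-0 the medians were -0.84 for the endodermis list and 0.78 for the root hair list. The part of root tissue in these ratios was not tested.

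Genes that mark sugar starvation lay partly below mock. Of 13 compared, 7 were at least 2-fold lower with DPI plus H2O2, 6 were within 2-fold and none was higher, with a median log2 ratio of -1.0. With DPI alone 10 of 13 were lower, with a median of -2.09, and in Col-0 10 of 13 were lower with DPI, with a median of -1.66. ASN1, for the asparagine synthetase that stores nitrogen when carbon is short, had 31.7 FPKM in DPI plus H2O2, 10.6 FPKM in DPI and 282 FPKM in mock. BCAT-2, which starts the breakdown of branched-chain amino acids, had 34.1, 11.9 and 184 FPKM, and MCCA, of the leucine pathway, had 24.1, 8.90 and 81.3 FPKM. All 13 genes had a higher mean with DPI plus H2O2 than with DPI, by 0.20 to 1.49 on the log2 scale. The median of the list thus lay between that of DPI alone and mock.

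Plasma membrane aquaporins of the PIP family, the water channels of growing cells, also had a median between that of DPI alone and mock. Of 17 compared, 5 were at least 2-fold lower and none higher with DPI plus H2O2, with a median log2 ratio of -0.49, and 8 were lower and 1 higher with DPI alone, with a median of -0.96. PIP2;4 had 45.5 FPKM in DPI plus H2O2, 18.8 FPKM in DPI and 190 FPKM in mock. PIP1C had 289, 166 and 888 FPKM. Genes that loosen or remodel the wall lay on both sides of mock: 2 expansins of 21 were higher and 2 lower, and 1 xyloglucan endotransglucosylase of 22 was higher (XTH9, with 26.8, 47.8 and 10.2 FPKM) and 5 lower, among them XTH7 with 7.48, 11.7 and 21.1 FPKM. Of 9 extensins compared, 1 was at least 2-fold higher and 1 lower, with a median log2 ratio of 0.40. The higher one was EXT4, with 11450 FPKM in DPI plus H2O2, 11538 FPKM in DPI and 2770 FPKM in mock.

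The compared SAUR and Aux/IAA growth genes, many of them low with DPI alone, lay within 2-fold of mock with DPI plus H2O2, as did most genes. The SAUR genes encode small auxin-induced proteins that promote elongation. The list holds 16 of them, was chosen with earlier results of these data known, and does not stand for the whole family. Of 15 compared, none was past 2-fold from mock with DPI plus H2O2, with a median log2 ratio of -0.23 and a range of -0.70 to 0.26. Over all genes compared, 4.55% were higher and 2.88% lower, so this count lies near the share over all genes. With DPI alone 12 of 15 were at least 2-fold lower, beside 9.44% of all genes, with a median of -1.55. SAUR22 had 11.1 FPKM in DPI plus H2O2, 3.47 FPKM in DPI and 15.9 FPKM in mock, and SAUR26 had 3.63, 0.98 and 6.51 FPKM. For 11 of the 15 the counting interval of the ratio to mock held 1, for 3 it lay below 1 and for 1 above, so most could not be told from mock at this depth.

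The Aux/IAA genes, for repressors of auxin response that auxin itself induces, gave a similar picture. None of 19 was past 2-fold with DPI plus H2O2, near the share over all genes, with a median of 0.00. With DPI alone 7 were lower, beside 9.44% of all genes, with a median of -0.69. IAA6 had 4.42 FPKM in DPI plus H2O2, 0.64 FPKM in DPI and 8.80 FPKM in mock, and IAA29 had 11.6, 4.18 and 16.9 FPKM. Of 11 bHLH growth factors 1 was at least 2-fold lower with DPI plus H2O2, against 4 with DPI alone. That gene was PRE3, with 0.89, 1.19 and 3.34 FPKM. IBH1, a bHLH that restrains elongation, had 86.0 FPKM in DPI plus H2O2, 37.3 FPKM in DPI and 58.5 FPKM in mock.

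Genes that the study names for the brassinosteroid pathway or for growth were all within 2-fold of mock on FPKM + 1, 15 of 15, as were most genes compared (4.55% were higher and 2.88% lower). The median log2 ratio was -0.42, and 13 of the 15 had negative ratios. Without the added 1 FPKM, PRE1 and TRXh5 were slightly past 2-fold below mock. The list was assembled from the text of the study. The thioredoxin gene TRXh5 was lowest, with the values given above, at a log2 ratio of -1.0. CPD, for a brassinosteroid synthesis enzyme that the hormone represses, had 87.7 FPKM in DPI plus H2O2, 112 FPKM in DPI and 171 FPKM in mock, and DWF4, for another, had 3.55, 1.69 and 5.15 FPKM. The expansin gene EXP8 had 34.2, 16.0 and 65.6 FPKM and PRE1, a bHLH gene of elongation, had 2.84, 1.16 and 6.13 FPKM. IAA19 had 66.6, 21.3 and 86.4 FPKM and SAUR15 had 1.64, 0.183 and 2.54 FPKM. BZR1 itself had 40.8 FPKM in DPI plus H2O2, 35.7 FPKM in DPI and 50.7 FPKM in mock. The level does not check the genotype label, since the mutation changes the protein and not the transcript. Its partners PIF4 and ARF6 had log2 ratios of -0.47 and -0.30, its relative BES1 -0.46, the kinase gene BIN2 -0.25, the receptor genes BRI1 and BAK1 -0.15 and 0.05, and PRE5 0.44.

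Single genes of other pathways stood apart from lists that were mostly near mock, as were most genes compared. NRT2.1, a high-affinity nitrate transporter gene, had 7.18 FPKM in DPI plus H2O2, 20.6 FPKM in DPI and 0.495 FPKM in mock, while the other 5 nitrate genes compared had log2 ratios between -0.86 and 0.90. KCS12, for an elongase of very long fatty acids, had 69.1, 31.2 and 13.5 FPKM and was the single one of 14 KCS genes past 2-fold. Of 11 glucosinolate genes 3 were at least 2-fold higher and none lower, MAM3, CYP79B3 and CYP79B2, the last with 37.6, 32.7 and 14.0 FPKM. Of 50 WRKY factors compared 1 was past 2-fold, WRKY51 with 2.97, 1.81 and 0.92 FPKM, and none of 5 cellulose synthase genes was. Seed storage and oil body genes, known from the embryo, had a median log2 ratio of 0.50 and 1 of 10 past 2-fold. Their summed level was 535 FPKM in DPI plus H2O2, 492 FPKM in DPI and 371 FPKM in mock. In Col-0 they lay the other way, with 5 of 7 at least 2-fold lower with DPI, a median of -1.97, and a summed level of 46.5 FPKM with DPI and 314 FPKM in mock. The part of these genes in other ratios was not tested.

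Col-0 gave a choice of DPI-responsive genes that used no bzr1-1D library. Of 194 genes at least 2-fold higher with DPI in Col-0, 175 were compared in bzr1-1D, and their median log2 ratio over mock was 1.07 with DPI plus H2O2 and 1.54 with DPI. At least 2-fold higher were 92 with DPI plus H2O2 (52.6%) and 111 with DPI (63.4%), beside 4.55% and 5.3% of all genes compared. Of 659 genes at least 2-fold lower with DPI in Col-0, 620 were compared, and their medians were -0.61 with DPI plus H2O2 and -1.39 with DPI. At least 2-fold lower were 197 with DPI plus H2O2 (31.8%) and 416 with DPI (67.1%), beside 2.88% and 9.44% of all genes compared. After centring each comparison on its median gene, the medians were 1.03 and 1.75 for the first set and -0.65 and -1.18 for the second.

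Within the same sets, DPI plus H2O2 was also set directly against DPI. The genes chosen as higher had a median log2 ratio of -0.04 and those chosen as lower 0.72, beside 0.25 over all genes of that comparison. Relative to the median gene, the genes chosen as higher stood 0.29 lower with H2O2 and those chosen as lower stood 0.47 higher. On that scale both sets were shifted towards mock when H2O2 was present. Which set was shifted more depends on the measure, since the centred medians of the ratios to mock, given above, lie further apart in the genes chosen as higher. These values share the DPI plus H2O2 libraries with the ratios to mock.

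**Figure D5:**
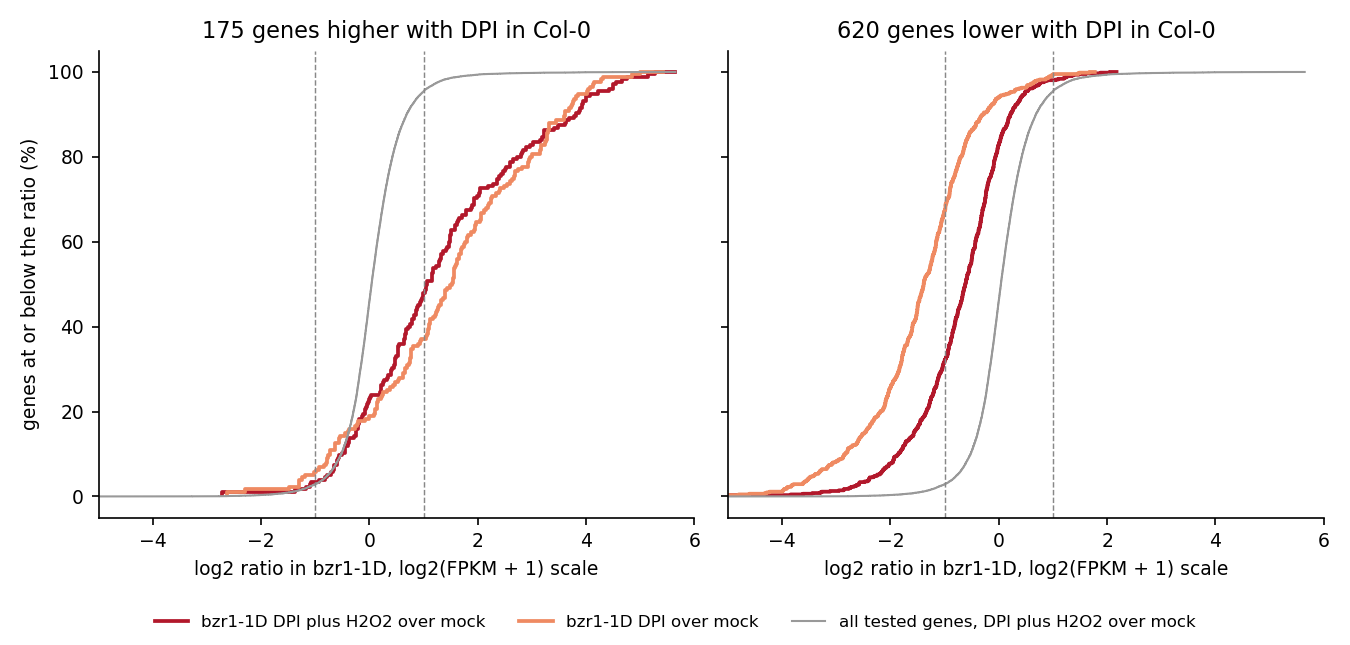
Cumulative share of genes (%) by log2 ratio in bzr1-1D (log2(FPKM + 1) scale) for the 175 genes chosen as at least 2-fold higher and the 620 chosen as at least 2-fold lower with DPI in Col-0, with DPI plus H2O2 over mock (dark red), DPI over mock (orange) and, in grey, all compared genes with DPI plus H2O2 over mock. The medians are 1.07 and 1.54 on the left and -0.61 and -1.39 on the right, so that the curves lie closer on the left, whereas after centring on the median gene (1.03 and 1.75, -0.65 and -1.18) the gap is wider on the left.

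The genes past 2-fold in bzr1-1D with DPI plus H2O2 were in turn read in Col-0. Of the 843 higher genes, 748 were compared in Col-0, where 92 (12.3%) were at least 2-fold higher with DPI and 14 at least 2-fold lower, with a median log2 ratio of 0.22. Of the 533 lower genes, 475 were compared, and 197 (41.5%) were at least 2-fold lower and 5 at least 2-fold higher, with a median of -0.85. The median of all Col-0 genes was -0.24. Both shares lie above the 1.1% and 3.73% of all genes, and in both sets most genes were not past 2-fold in the wild type. The Col-0 seedlings had DPI without H2O2, so treatment as well as genotype differs between these readings.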

How the data were processed

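RNA was sequenced on the BGISEQ-500 platform. Per the labels, mapping to TAIR10 was done with HISAT and Bowtie2 (versions not given in the sources used here), and NOISeq was used for the comparisons. The authors scaled the fragments by gene length and library size, averaged them within each group and deposited these means, whose unit is not named and was taken as FPKM, since the values scale with gene length and the lowest ones are whole multiples of 1 fragment. The lowest listed value was 0.01 FPKM, which may stand for no fragments, but the sources used here do not say so. The columns of the authors' log2 ratio, probability and direction were not used. Per-sample values were not analysed here, so the fit for such values gave way to the one for means.

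The tables of 4 pairs of groups were read with Python 3.11.15 and pandas 2.3.3. Genes with an average of 2 means of at least 1 FPKM were compared as log2 of (mean + 1) ratios, and a gene was counted at 2-fold or more. Named genes were the 12 largest and 12 smallest ratios with an average of at least 10 FPKM, up to 4 members per list with the largest ratio, and the genes the study names. Members and lists were chosen with earlier results of these data known. Fragments were estimated from the value of 1 fragment per kb, and counting intervals (95%, Clopper-Pearson, SciPy 1.17.1) were computed on them. The count of genes past 2-fold was tested on simulated means with planted changes well past that threshold. Alternatives were a 1.5-fold threshold, pseudocounts of 0.1 and 5 FPKM, no minimum, a minimum of 10 FPKM, and centring on the median gene.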

Additional observations from a re-analysis of the deposited data

How the results depend on the processing

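With the 1.5-fold threshold, 2430 genes were higher and 1557 lower with DPI plus H2O2 than in mock, 2351 and 4476 with DPI alone, and 537 and 3031 with DPI in Col-0. A pseudocount of 0.1 FPKM gave 1265 higher genes with DPI plus H2O2, and 292 higher and 1218 lower genes in Col-0. A pseudocount of 5 FPKM gave 368 and 240 with DPI plus H2O2, 506 and 799 with DPI, and 94 and 225 in Col-0. With a minimum of 10 FPKM the counts were 448 and 293, 605 and 913, and 96 and 286. Centring gave 1540 and 1145 with DPI and 350 and 333 in Col-0, where the share of higher genes thus moved most. Dropping the minimum changed no count by over 1.5 times. The median with DPI alone of genes lower in Col-0 was -0.76 with the 1.5-fold choice. Of 98 medians of the 33 lists under other settings, 97 moved by less than a 1.5-fold ratio and none turned sign from beyond 2-fold. The exception was flavonoid synthesis, where a minimum of 10 FPKM left 1 gene, at 2.60. No paired analysis was possible because only group means were analysed, and leaving out each replicate was not run for the same reason. Depth limits genes below 1 FPKM, where the counting error in mock is 23.1% or more for a gene of 1 kb.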
